A study of Saccharomyces cerevisiae with 21 samples.

Results

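Dry baker's yeast was set against yeast that had lost only part of its water. Saccharomyces cerevisiae of the diploid laboratory strain BY4743, a relative of S288C that carries deletions at the HIS3, LEU2 and URA3 genes, was grown in rich medium at 30 °C to an absorbance of 0.8. The cells were moved to 20-fold diluted medium and dried at 22 to 25 °C in glass dishes of 15 ml. The 50% dry group was taken after 18 h of drying. The dry group was taken after 42 h of drying and a further 72 h at 20% relative humidity. Each group had 3 Affymetrix yeast arrays made from total RNA, so 6 of the 21 arrays of the time course were compared, over all 9275 probe sets that are not array controls. The other arrays were a growing control group and 4 groups of rehydrated cells. No sample between the 50% dry and the dry state was analysed here, so changes of late drying and changes of dry storage cannot be told apart. Whether the 3 arrays of a group came from separate cultures was not given in the sources used here. Every p-value therefore measures the spread between arrays of a group, which may be technical. For probe sets this spread was pooled over all 21 arrays of the time course, not only the 6 compared.

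Yeast is among the organisms that survive loss of nearly all of their water. As water leaves, cells are known to accumulate the sugar trehalose, heat-shock chaperones and small, highly hydrophilic proteins (hydrophilins), and to shut down the making of ribosomes, the largest expense of a growing cell. Ribosome production uses all 3 nuclear RNA polymerases: polymerase I makes the large ribosomal RNA precursor, polymerase III makes the 5S ribosomal RNA and the transfer RNAs, and polymerase II makes the messenger RNAs of ribosomal proteins and assembly factors.

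The 6 arrays were alike in overall signal, with array medians from 194 to 207 over the tested probe sets. Replicates correlated at 0.986 to 0.990 among the 50% dry arrays and at 0.986 to 0.992 among the dry arrays. The 50% dry arrays and the first dry array were hybridized in the same run, and the other 2 dry arrays in another. The 3′ minus 5′ signal difference, a sign of RNA breakage, was 0.76 ± 0.26 (SD, n = 3, log2) at 50% dry and 0.94 ± 0.03 when dry for ACT1, 1.64 ± 0.20 and 1.05 ± 0.66 for SPT15, and 1.38 ± 0.13 and 1.61 ± 0.31 for SRB4. None of these differences passed the test (limma, adjusted p = 0.41, 0.24 and 0.41). URA3, deleted in this strain, had a mean signal of 2.17 at 50% dry and 2.4 when dry. LEU2, also deleted, had 50.2 at 50% dry and 22.1 when dry on its brightest probe set, a log2 difference of -0.76 that was not called. Another LEU2 probe set was called lower in dry cells (-1.10, limma adjusted p = 0.0057), and a further one differed by -0.19. HIS3 had 232 at 50% dry and 139 when dry, and the deletion at HIS3 in this strain is known to remove only part of the gene. The 30 measured mating and haploid-specific genes, which a diploid keeps low, had a median signal of 70.3 at 50% dry and 59.9 when dry, and none was called by limma (7 had an unadjusted p under 0.05).

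Values below are deposited signals (intensity, in arbitrary units, scaled by the authors to a common array mean) in array order, followed by the difference dry minus 50% dry on the log2(signal + 17.74) scale after quantile normalization, with its standard error (SE) from limma. A probe set or gene was called higher or lower, and is said to have risen or fallen, at a Benjamini-Hochberg adjusted p under 0.05 over all 9275 probe sets and at least a 2-fold difference. Because every array was scaled to a common mean, a difference is one of relative level, and fewer intact cells and less RNA per cell cannot be told apart. A signal also cannot be set against that of another probe set, so levels are compared only within a gene.

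Between 50% dry and dry, 752 of the 9275 probe sets were called (8.11%), of which 284 were higher (3.06%) and 468 lower (5.05%) in dry cells. Counted by genes, with the brightest probe set standing for each, 551 of 5656 were called (9.74%): 202 were higher (3.57%) and 349 lower (6.17%). Among the 5467 nuclear protein-coding genes 460 were called (8.41%), 117 higher (2.14%) and 343 lower (6.27%), and transfer RNA and other untranslated RNA genes made up most of the remaining rises. A change of 4-fold or more was seen in 43 of the genes that rose and 44 of those that fell, but among nuclear protein-coding genes in only 4 that rose against 43 that fell. Most genes differed little: the median difference over genes was 0.02, and from the 5th to the 95th percentile differences ran from -1.10 to 0.89. In 549 of the 551 called genes the 3 dry arrays lay all above or all below the 3 50% dry arrays. Over all genes the dry arrays lay all above in 31.1% and all below in 28.3% (26.5% and 23.8% over probe sets, 30.1% and 28.7% over nuclear protein-coding genes). Without the fold minimum, 3258 probe sets passed the adjusted p, 1723 higher and 1535 lower, so many small differences were larger than the spread between arrays.

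**Figure D1:**
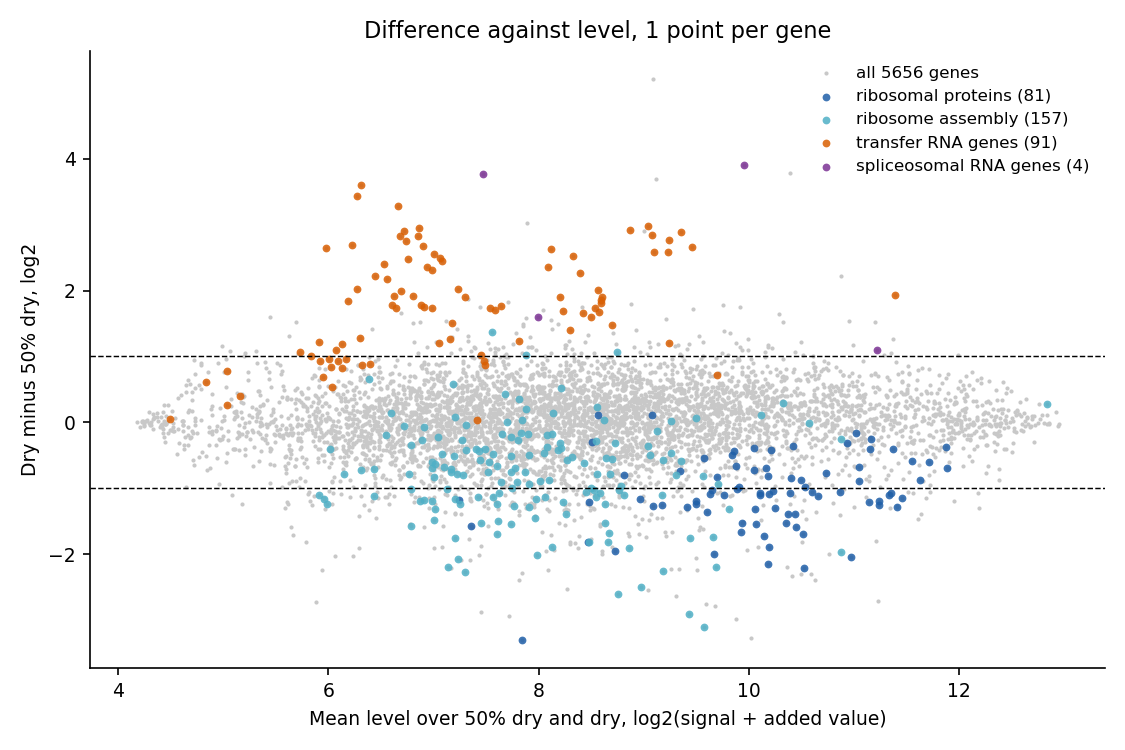
Difference dry minus 50% dry (log2, y axis) against the mean level of both groups (log2 scale, x axis), 1 point per gene; dashed lines mark 2-fold. Transfer RNA (orange) and spliceosomal RNA genes (purple) lie mostly above the upper line, and ribosomal protein (dark blue) and ribosome assembly genes (light blue) mostly below 0.

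The largest block of rises was of transfer RNA genes, which encode the adaptors that carry amino acids to the ribosome. Of 91 transfer RNA genes measured, 72 rose and none fell, and in 86 the dry arrays all lay above the 50% dry arrays. Over all genes 3.57% rose, and the dry arrays lay all above in 31.1%. The median difference of the transfer RNA genes was 1.79, and their median signal went from 47.5 to 295. The gene SUF16 gave signals of 4.2, 4.8 and 6.2 in the 50% dry arrays and 296, 279.9 and 316 in the dry arrays. It rose by 3.60 ± 0.23 (adjusted p = 1.2e-09), from a signal near the floor of the array. SUP51 moved in the same way, from 6.3, 6.6 and 4.6 to 279.5, 274 and 266, a difference of 3.44 ± 0.22. Smaller but called rises were those of SUF23 (2.91 ± 0.23) and SUF17 (2.67 ± 0.21). IMT3, an initiator methionine transfer RNA gene, gave 179.5, 209 and 128 in the 50% dry arrays and 530.4, 561 and 654 in the dry arrays, a rise of 1.69 ± 0.19. SUP16 rose by 1.48 ± 0.20. At the other end, TRR4 gave 178, 186 and 150.5 in the 50% dry arrays and 169, 210.3 and 156 in the dry arrays, and these values overlapped. Of the 92 transfer RNA probe sets 75 are of the array's family type, whose probes are shared between near-identical genes, so the gene named on such a probe set stands for its family, and the 72 calls are not 72 independent measurements. Of those 75 family sets 62 rose, and of the 3 sets built for a single gene 1 did. Within the hybridization run that both groups shared, the median difference over transfer RNA probe sets was 1.78, as it was over all arrays.

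Spliceosomal RNAs, which pair with messenger RNA precursors and one another during splicing, were higher too. All 4 measured genes were called higher, beside 3.57% of all genes, with a median difference of 2.69. SNR14, the U4 RNA, gave 263, 245 and 279.8 in the 50% dry arrays and 2928, 3397 and 3613 in the dry arrays. This was a rise of 3.90 ± 0.08 (adjusted p = 6.5e-17), with every dry array over 10 times as bright as every 50% dry array. The U5 RNA, read by SNR7-L, gave 36.3, 33.4 and 31.9 in the 50% dry arrays and 628, 724 and 738 in the dry arrays, a rise of 3.77 ± 0.11. U1 (SNR19) rose by 1.60 ± 0.12, from 159.9, 139 and 142 to 422, 488 and 515. U6 (SNR6), the one member of the set made by polymerase III, rose by 1.10 ± 0.11. Its call ended when the deposited scaling was kept (0.91) or the arrays were centred on their medians (0.88), while the other 3 were called under both. The mean signal of SNR14 was 62.6 in the control group, 3312 in dry cells and 13503 after 360 min of rehydration.

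Rises were also called among other stable RNAs. RPR1, the RNA of ribonuclease P, which trims the 5′ ends of transfer RNAs, gave 1109, 917 and 675 in the 50% dry arrays and 3130.3, 3468 and 3844 in the dry arrays, a rise of 2.22 ± 0.16 (adjusted p = 4.3e-09). Telomerase RNA (TLC1) rose on 1 of its 2 probe sets, by 1.50 ± 0.17 (0.91 and not called with a larger added value), and the other differed by 0.82 without reaching the fold minimum. Of the 7 probe sets on the ribosomal RNA transcript unit RDN37-1, 5 rose and 2 were not called, beside 3.06% of all probe sets higher. Differences of the 7 ran from -0.16 to 5.26. One of them went from 1582, 1643 and 1583 to 4891, 4804 and 5487, a difference of 2.08 ± 0.15. A probe set on RDN25-1, for the 25S RNA, gave 119, 86.7 and 46.7 at 50% dry and 1187, 4159 and 4801 when dry, a difference of 5.21 ± 0.74. The first dry array, the one hybridized beside the 50% dry arrays, was the lowest of the dry arrays here, and within that run the difference was 3.68; without that array it was 5.97. The highest RDN37-1 difference (5.26 ± 1.04) was 3.87 within the shared run and 5.95 without the first dry array. The array's own 10 control probe sets for 18S and 25S RNA, which entered no test, showed the same order. In all 10 the dry arrays lay above the 50% dry arrays, beside 26.5% of all tested probe sets. As 5 of them read the 18S and 5 the 25S RNA, they are not 10 separate measurements. Of 3 probe sets for the 5S RNA, 2 rose (RDN5-1, by 1.52 ± 0.40 and 1.30 ± 0.25). The first of these rose from signals of 3.8, 13.8 and 26.0, near the floor, and with a larger added value differed by 0.64 and was not called. The other probe set, RDN5-3, differed by 0.39 ± 0.29, with overlapping arrays. How the labelled target was primed was not given in the sources used here, and whether the share of RNA without a poly(A) tail moves with priming was not tested.

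Small nucleolar RNAs, the guides that direct the chemical modification of ribosomal RNA, were called in both directions. Of 57 measured genes 3 rose and 6 fell, and their median difference was -0.34. Over all genes 3.57% rose and 6.17% fell. SNR8 gave 1689.8, 1525 and 1501 in the 50% dry arrays and 385, 313 and 385 in the dry arrays, a difference of -2.23 ± 0.17, with no overlap. SNR71 fell by 1.84 ± 0.15 and SNR72 by 1.28 ± 0.21, which with a larger added value was -0.99 and not called. Against these, SNR45 rose by 1.59 ± 0.15, from 141, 122 and 146 to 443, 455 and 417. SNR61 rose by 1.78 ± 0.41, but its dry arrays were spread (1062, 1602 and 2338). Within the shared run the difference was 1.13, and with the hybridization run as a block in the fit SNR61 was not called. SNR67 fell by 1.12 ± 0.23, a call that ended without the first 50% dry array or the first dry array, and differed by -1.85 within the shared run.

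**Figure D2:**
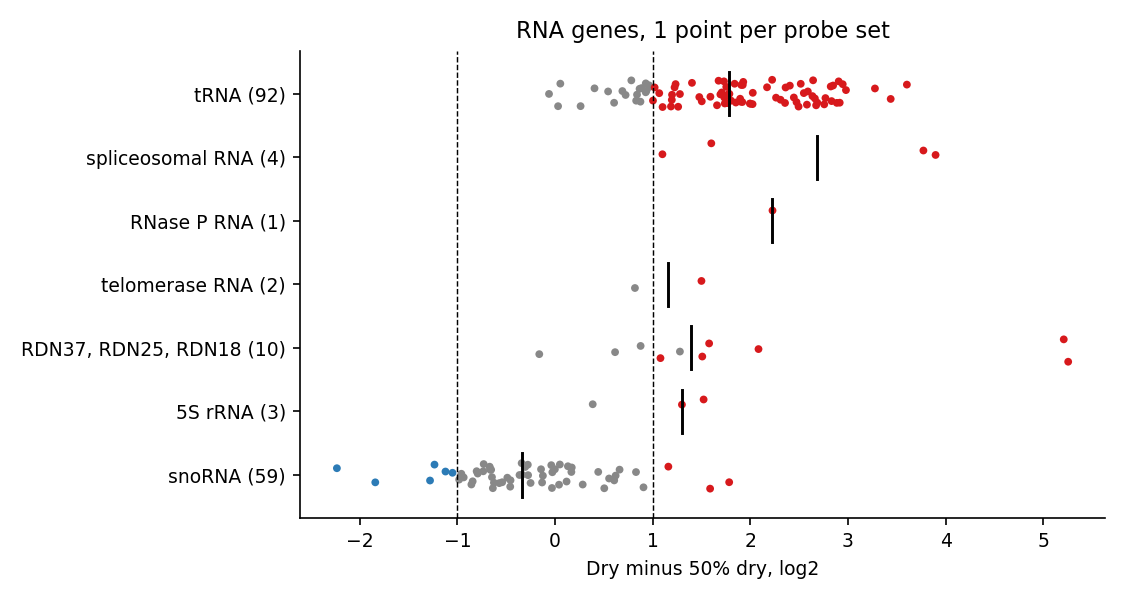
Difference dry minus 50% dry (log2, x axis) of every RNA gene probe set by class, with the number of probe sets in brackets; red points were called higher, blue points lower, grey points not called, black bars are medians and dashed lines 2-fold. Transfer RNAs, spliceosomal RNAs and RNase P RNA lie to the right, while small nucleolar RNAs spread around -0.34.

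Among nuclear protein-coding genes 4 rose 4-fold or more. TIP1, a major mannoprotein of the cell wall known for its induction by cold, gave 722, 522 and 129 in the 50% dry arrays and 3725, 3539 and 5045 in the dry arrays. The rise was 3.78 ± 0.39 or 13.8-fold (adjusted p = 4.3e-07), and the 50% dry arrays were themselves spread over a wide range. The third 50% dry array was the lowest of these, and without it the difference was 3.02. PDR12, the plasma membrane pump for weak organic acids such as sorbate, gave 158, 139.5 and 174 in the 50% dry arrays and 1828, 2032 and 1932 in the dry arrays. Its rise of 3.69 ± 0.10 (12.9-fold, adjusted p = 1.3e-14) was far outside the narrow spread of both groups. STL1, which takes up glycerol together with protons, gave 73.3, 65.3 and 89.6 in the 50% dry arrays and 763, 696 and 697 in the dry arrays, a rise of 3.02 ± 0.16 (8.11-fold). IZH4, a membrane protein of zinc metabolism, gave 226, 185 and 168 in the 50% dry arrays and 1396, 1515 and 1340.2 in the dry arrays, a rise of 2.90 ± 0.11.

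The 4 genes came from different starting points. TIP1 and PDR12 had been higher in growing cells than at 50% dry, with control means of 3166 and 670.3 against 457 and 157. STL1 and IZH4 had control means of 25.6 and 129, below their 50% dry means. After 360 min of rehydration TIP1 had a mean of 5060.4, PDR12 416, STL1 200.0 and IZH4 660.3. The TIP1 mean was then above that of dry cells, and the other 3 means were below it, without a test here.

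The next largest rises ran from 1.54 to 1.87 and came from genes of varied roles. PDC6, a minor pyruvate decarboxylase, rose by 1.82 ± 0.13, from 103, 103 and 118 to 432, 396 and 440.1. CUP2, the copper-sensing activator of the metallothionein gene, rose by 1.75 ± 0.11, from 539, 500.0 and 590.5 to 1792, 1766 and 1675. BDF2, a bromodomain protein that binds acetylated histones, rose by 1.80 ± 0.14. ARK1, a kinase of the cortical actin patch, rose by 1.74 ± 0.16, ICT1, an acyltransferase of phospholipid synthesis, by 1.72 ± 0.17, and YSY6, a small protein of the secretory pathway, by 1.70 ± 0.14. SRL4 was at 72.5, 75.7 and 80.1 and then at 328, 329 and 329, a rise of 1.87 ± 0.22 with almost no spread when dry. FHN1, a plasma membrane protein, rose by 1.66 ± 0.18, and with a larger value added before the logarithm its difference was 0.99 and not called. For REX3, an RNA exonuclease, the brightest of 4 probe sets rose by 1.57 ± 0.23, the others differed by 1.25, -0.21 and 0.00, and the mean of all 4, at 0.66, was not called. ATP6, a subunit of the ATP synthase encoded in mitochondrial DNA, gave 210.1, 209 and 93.2 in the 50% dry arrays and 255, 553 and 903 in the dry arrays, a rise of 1.56 ± 0.37. Within the shared hybridization run this was 0.57, and the first dry array was the lowest of the 3. With the run as a block in the fit ATP6 was not called.

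**Figure D3:**
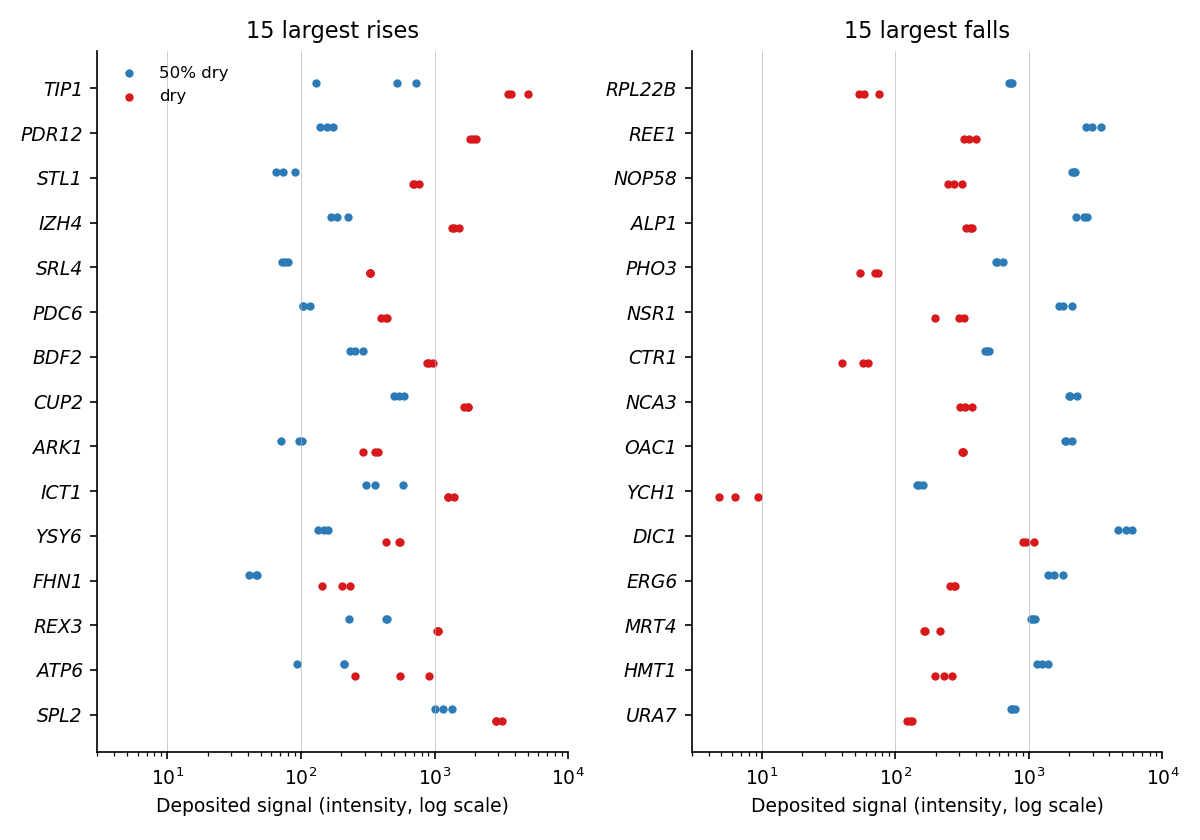
Deposited signals (intensity, log axis) of the 15 protein-coding genes with the largest rises (left) and the largest falls (right), 3 points per group, blue for 50% dry and red for dry. The groups do not overlap for any gene, and the spread is widest for TIP1, from 129 to 722 at 50% dry, and ATP6, from 255 to 903 when dry.

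Falls among protein-coding genes were more numerous, also past 4-fold, although the largest single differences were the rises of TIP1 and PDR12. RPL22B, one of the paired genes for a protein of the large ribosomal subunit, gave 711, 734 and 752 in the 50% dry arrays and 75.7, 58.6 and 53.9 in the dry arrays, the largest fall (-3.30 ± 0.15, 9.83-fold, adjusted p = 1.1e-11). REE1, known for a part in regulating the enolase gene ENO1, gave 3452, 2984 and 2693 in the 50% dry arrays and 356, 400.4 and 324 in the dry arrays, a difference of -3.27 ± 0.12. Both sets of arrays were tight. ALP1, an arginine transporter, went from 2742, 2587 and 2246 to 339.6, 373 and 361, a difference of -2.98 ± 0.16. Its control mean was 51.9, so that among the 7 groups it was highest at 50% dry. DIC1, the dicarboxylate carrier of the inner mitochondrial membrane, followed the same course: control mean 891, then 5897, 5302 and 4682 at 50% dry and 944, 1089.7 and 902 when dry, a difference of -2.71 ± 0.10. OAC1, the mitochondrial oxaloacetate carrier, fell by 2.75 ± 0.09, from 1902, 2105 and 1872 to 316, 321 and 323.

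PHO3, an acid phosphatase of the periplasm, fell by 2.93 ± 0.27, from 564, 582 and 638 to 74.2, 54.9 and 70.2. ERG6, a methyltransferase of ergosterol synthesis, fell by 2.63 ± 0.15, and URA7, the main CTP synthase, by 2.53 ± 0.10. HMT1, which methylates arginines of RNA-binding proteins, fell by 2.54 ± 0.13. YCH1 gave 145, 162 and 151 in the 50% dry arrays and 4.8, 9.4 and 6.3 in the dry arrays. Its difference of -2.73 ± 0.12 rests on a dry signal near 0, and the size ranged from -4.30 to -1.25 with the value added before the logarithm. NCA3, a protein of the SUN family linked to the cell wall, had a control mean of 97.1 and fell from 2275, 1991 and 2019 to 334, 372 and 304, by 2.78 ± 0.12. After 360 min of rehydration the means were 216 for RPL22B, 505 for REE1, 297 for ALP1 and 1550.0 for DIC1, each still below its 50% dry mean.

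**Figure D4:**
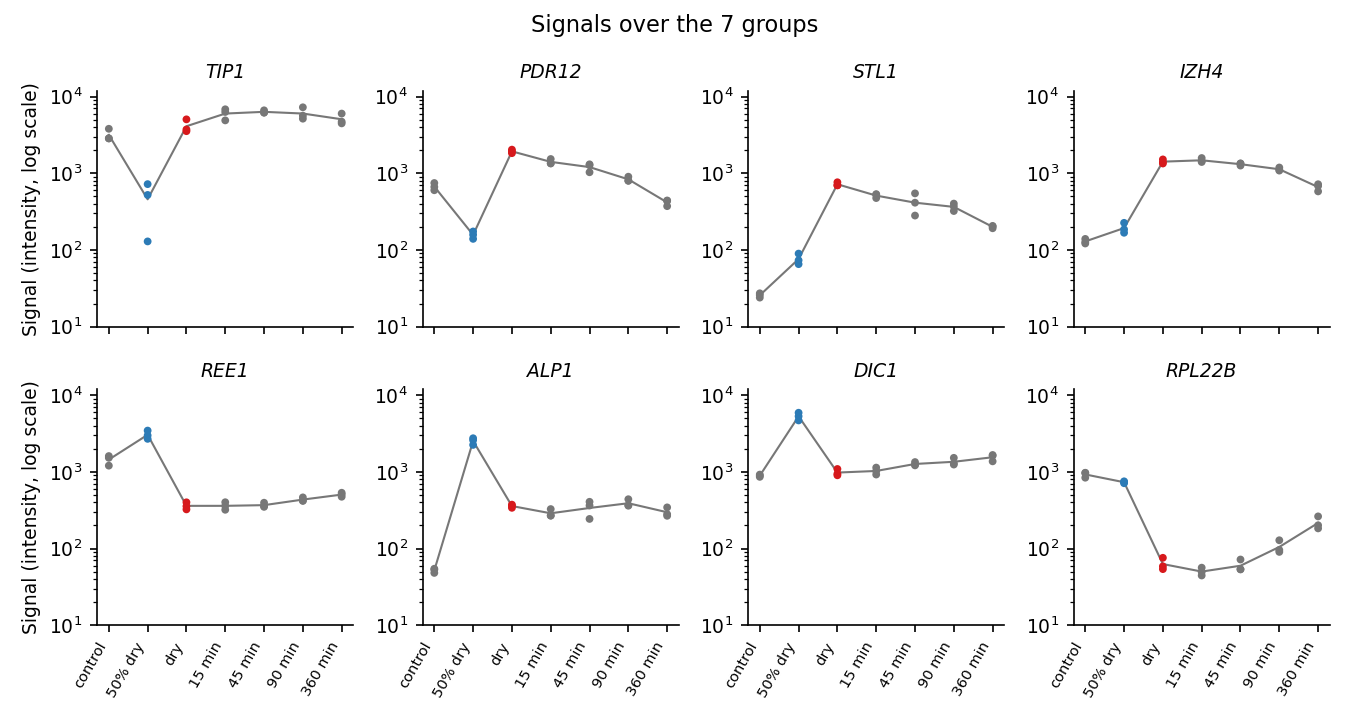
Signals (intensity, log axis) of 8 genes on all 21 arrays, by group in the order of the time course; points are arrays, lines join group means, blue marks 50% dry and red dry. REE1, ALP1 and DIC1 have their highest group mean at 50% dry, and TIP1 and PDR12 their lowest.

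Genes of the ribosome fell together. Of 34 measured genes for proteins of the small ribosomal subunit 19 fell and none rose, with a median difference of -1.09. In all 34 the 3 dry arrays lay below the 3 50% dry arrays. Over all nuclear protein-coding genes 6.27% fell, and the dry arrays lay all below in 28.7%. Of 47 genes for the large subunit 28 fell and none rose (median -1.08), with the dry arrays lying all below in 43. The median signal went from 1671 to 832 over small subunit genes and from 1713 to 845 over large subunit genes. RPL22B and its paralog RPL22A were both called, and RPL22A fell by 2.15 ± 0.24, from 2155, 2489 and 2369 to 584, 606 and 568. RPS22A gave 3841, 3445 and 3611 in the 50% dry arrays and 1014, 1214 and 877 in the dry arrays, a difference of -2.04 ± 0.18. RPS9A fell by 1.95 ± 0.11, RPS14B by 1.99 ± 0.17 and RPL13A by 1.82 ± 0.17. RPS0B fell by 2.21 ± 0.45, and its second probe set differed by -1.15. Most of these proteins are encoded by near-identical gene pairs, and how the probe sets divide the pair's RNA was not tested. Mitochondrial ribosomal proteins, set beside these, had 1 call: of 73 genes 1 fell (MRPS8, by 1.07 ± 0.16), and the median difference was -0.01. MRPS8 was not called with the hybridization run as a block (-0.87) or with a larger added value (-0.51).

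Among assembly factors of the ribosome falls outnumbered rises, beside 6.27% of nuclear protein-coding genes lower and 2.14% higher. The small subunit processome, the complex that folds and cuts the precursor of the 18S RNA, had 23 of 62 genes lower and 1 higher (median -0.76). UTP15 gave 308, 313 and 309 in the 50% dry arrays and 39.8, 71.2 and 51.4 in the dry arrays, a difference of -2.20 ± 0.16. RRP3, an RNA helicase, fell by 2.07 ± 0.19, the methyltransferase EMG1 by 2.01 ± 0.14, and UTP18 by 1.81 ± 0.22. The 1 gene called higher, UTP20, has 10 probe sets whose differences ran from -1.12 to 1.37, and their mean of 0.19 was not called.

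Large subunit assembly had 27 of 76 genes lower and 2 higher (median -0.75). MRT4, which prepares the ribosomal stalk, gave 1114, 1066 and 1029 in the 50% dry arrays and 216, 168 and 164 in the dry arrays, a difference of -2.61 ± 0.12. The groups were far apart. RSA4 fell by 2.26 ± 0.18, the GTPase NOG2 by 2.19 ± 0.16 and ERB1 by 1.90 ± 0.10. NOP16 (1.06 ± 0.13) and REA1 (1.02 ± 0.12) were just above the 2-fold line, and both calls ended with a larger added value. The NOP16 call also ended without the second 50% dry array, and the REA1 call with median-centred arrays or without the first dry array. Of 20 core proteins of small nucleolar ribonucleoproteins and related nucleolar proteins 9 fell and none rose (median -0.78). NOP58, a core protein of the box C/D particles, gave 2109.6, 2207 and 2187 in the 50% dry arrays and 249, 274 and 314 in the dry arrays, a difference of -3.11 ± 0.15, and its other 3 probe sets differed by -2.58, -2.22 and -1.36. NSR1, the yeast nucleolin, fell by 2.91 ± 0.17, SRP40 by 2.50 ± 0.11, and the rRNA methyltransferase NOP1 by 2.26 ± 0.10.

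The polymerases that make ribosomal and transfer RNA were set side by side, without a test of the difference between the lists. Over nuclear protein-coding genes 6.27% were lower and 2.14% higher. For RNA polymerase I and its factors 6 of 15 genes fell and 1 rose (median -0.72). RPA49 gave 483, 549 and 553 in the 50% dry arrays and 68.2, 112 and 95.3 in the dry arrays, a difference of -2.39 ± 0.21. RPA12 fell by 2.09 ± 0.20, RPA34 by 1.96 ± 0.13 and RPA43 by 1.59 ± 0.26. The gene that rose was RRN3, the factor that brings the polymerase to the ribosomal DNA promoter: it went from 437, 436 and 451 to 1000.1, 985 and 1007, a rise of 1.17 ± 0.08. For RNA polymerase III none of 22 genes fell and 2 rose (median -0.13). These were MAF1, the repressor of polymerase III, at 156, 225 and 258 and then 507, 446 and 529 (1.17 ± 0.16), and BDP1, a subunit of its initiation factor, at 1.12 ± 0.14. Both calls ended with a larger added value or without the first 50% dry array. Subunits that polymerases I and III share, RPC40 and RPC19, differed by -0.98 and -0.83, and the largest polymerase III subunit, RPO31, by 0.94, none of them called. RNA polymerase II and general factors had 3 of 28 genes lower and 2 higher (median 0.29): RPB5, RPB8 and RPB9 fell by 1.94 ± 0.16, 1.48 ± 0.13 and 1.22 ± 0.15, and CCL1 and SSL2, of the general factor TFIIH, were higher by 1.36 ± 0.09 and 1.01 ± 0.11. The SSL2 call ended with a larger added value (0.91), the deposited scaling (0.99) or median-centred arrays (0.95). It also ended without the first 50% dry array, the first dry array or the second dry array. The RPB9 call ended with a larger added value (-0.92). RPB5 and RPB8 also serve polymerases I and III.

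Falls continued in the genes that feed translation, beside 6.27% of nuclear protein-coding genes lower and 2.14% higher. Of 22 cytosolic tRNA synthetases and cofactors 5 fell and none rose (median -0.72), led by FRS1 for phenylalanine (-2.05 ± 0.19, from 1579, 1491 and 1358 to 369, 403 and 369.8), WRS1 for tryptophan (-1.91 ± 0.11) and MES1 for methionine (-1.69 ± 0.20). Of 39 tRNA modification genes 6 fell and none rose (median -0.50), among them the methyltransferases TRM11 (-2.01 ± 0.15) and TRM7 (-1.57 ± 0.18). Translation factors had 5 of 37 lower, and the initiation factor subunit PRT1 fell by 1.31 ± 0.14. The transfer RNAs themselves, on the same arrays, were higher, as described above. Purine and pyrimidine synthesis had 8 of 32 lower (median -0.36), and FUR1 fell by 1.54 ± 0.16 and PRS1 by 1.36 ± 0.09 beside URA7. In amino acid synthesis 10 of 67 fell and none rose (median -0.25). SER2, of serine synthesis, fell by 2.24 ± 0.28, from 129, 119.5 and 151 to 12, 8.7 and 17.3, BAT1, a branched-chain aminotransferase, by 1.66 ± 0.22, and ARG4, of arginine synthesis, by 1.51 ± 0.11. In sulfur assimilation and methionine synthesis none of 30 genes was called by limma (median -0.09), with 18 at an unadjusted p under 0.05.

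**Figure D5:**
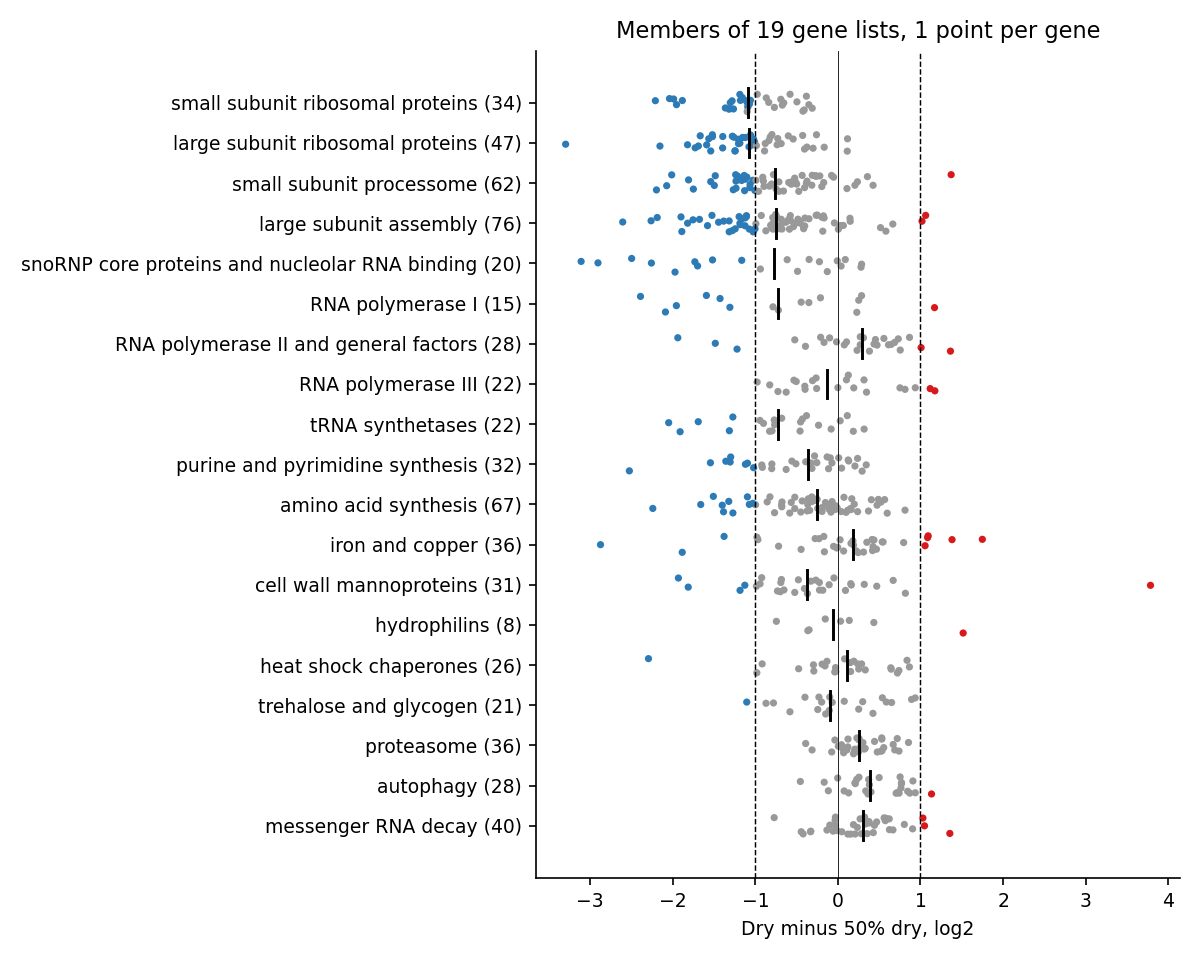
Difference dry minus 50% dry (log2, x axis) of the members of 19 gene lists, 1 point per gene, with the number of genes in brackets; red was called higher, blue lower, grey not called, black bars are medians and dashed lines 2-fold. Ribosomal proteins have their medians near the lower 2-fold line, and the proteasome and autophagy lists lie mostly between 0 and the upper line.

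Sugar uptake and central metabolism had calls in both directions, beside 6.27% of nuclear protein-coding genes lower and 2.14% higher. Of 16 hexose transporters and sensors 4 fell. Among these, HXT3 (-1.13) and HXT4 (-1.14) were not called with a larger added value (-0.87 and -0.52). HXT4 was also not called with the hybridization run as a block or without the second dry array. HXT2, a high-affinity glucose transporter, gave 3312, 3172 and 3368 in the 50% dry arrays and 699, 810.1 and 694 in the dry arrays, a difference of -2.39 ± 0.19, and HXT7 fell by 1.46 ± 0.12, from 5399, 4533 and 4013 to 1829.5, 1846 and 1856. HXK2, the main hexokinase of cells growing on glucose, fell by 1.72 ± 0.22, and TDH1, one of the glyceraldehyde-3-phosphate dehydrogenases, by 1.19 ± 0.09. In the TCA cycle 4 of 22 genes fell: SDH3 (-1.29 ± 0.17), both subunits of isocitrate dehydrogenase, IDH1 (-1.25 ± 0.18) and IDH2 (-1.28 ± 0.14), and LSC2 (-1.18 ± 0.13). In the respiratory chain and ATP synthase none of 40 nuclear-encoded subunit genes was called by limma (median -0.06), with 13 at an unadjusted p under 0.05. ACS2, an acetyl-CoA synthetase, fell by 1.36 ± 0.12. PEX21 and DCI1, of the peroxisome, fell by 1.72 ± 0.14 and 1.23 ± 0.16.

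Metal and phosphate genes moved in both directions, beside 6.27% of nuclear protein-coding genes lower and 2.14% higher. Of 36 iron and copper genes 5 rose and 3 fell. CTR1, the high-affinity copper importer, gave 472, 504 and 484 in the 50% dry arrays and 39.8, 57.1 and 62.3 in the dry arrays, a difference of -2.87 ± 0.19. FRE1, a surface reductase that prepares copper and iron for uptake, fell by 1.38 ± 0.14 (-0.93 and not called with a larger added value), and FIT2, a cell wall protein that retains iron carriers, by 1.88 ± 0.21. CUP2 rose, as given above. CCC2, which pumps copper into the secretory pathway, rose by 1.09 ± 0.13, from 650.1, 744 and 752 to 1454, 1553 and 1490.3. TIS11, an RNA-binding protein that destabilizes messages under iron shortage, rose by 1.38 ± 0.12, from 610.2, 534 and 508 to 1350.5, 1496 and 1426. CTR3, a second copper importer, was called higher by 1.09 ± 0.22 from signals of 8.2, 6.1 and 15.5, near the floor. With the hybridization run as a block (0.65) or a larger added value (0.40) it was not called.

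In the zinc list of 12 genes IZH4 rose and ZRT2, a zinc importer, fell by 1.55 ± 0.22, from 839, 585 and 605 to 246, 312 and 169. In the phosphate list of 27 genes 3 rose and 1 fell (median 0.37). The share called was 16.7% in the zinc list and 14.8% in the phosphate list, beside 8.41% of nuclear protein-coding genes. SPL2, which lowers low-affinity phosphate uptake, gave 1346, 1164 and 1012 in the 50% dry arrays and 2862, 2897 and 3212 in the dry arrays, a rise of 1.54 ± 0.18. GIT1, which imports glycerophosphoinositol, rose by 1.53 ± 0.13, from 56.8, 56 and 59.4 to 228, 211 and 186 (0.95 and not called with a larger added value), and PHO81, the inhibitor of the cyclin-dependent kinase of the phosphate pathway, by 1.11 ± 0.12. PHO3, the gene that fell, is the acid phosphatase that phosphate does not repress.

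Cell wall genes had more falls than rises, as nuclear protein-coding genes had in general (6.27% and 2.14%). Of 31 wall mannoprotein genes TIP1 rose and 4 fell (median -0.37): PIR1 (-1.93 ± 0.11), PST1 (-1.81 ± 0.07), TIR3 (-1.19 ± 0.21) and PIR3 (-1.13 ± 0.11), whose call ended with the deposited scaling. PIR1, which is linked covalently to wall glucan, gave 2077, 1843 and 1888 in the 50% dry arrays and 495, 606 and 557 in the dry arrays. Of 43 genes for wall glucan and chitin 6 fell and 1 rose (median -0.32). GAS5, which extends glucan chains, fell by 1.81 ± 0.20, the exoglucanase EXG1 by 1.56 ± 0.16 and the daughter-cell protein DSE2 by 1.47 ± 0.17. CHS1, the chitin synthase that repairs the wall after division, rose by 1.20 ± 0.08, from 611, 612 and 679 to 1441, 1418 and 1459.

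Pumps and permeases followed no single direction. The share called was 14.7% of exporters, 8.89% of permeases and nitrogen genes, 11.1% of fatty acid and phospholipid genes and 10.3% of ergosterol genes. Over nuclear protein-coding genes it was 8.41% (6.27% lower and 2.14% higher), so the last 3 shares are near the general one. Of 34 multidrug and weak acid exporters 2 rose and 3 fell. Beside PDR12, the multidrug pump PDR5 rose by 1.32 ± 0.10 on the brightest of its 7 probe sets, and the mean of all 7, at 0.68, was not called. QDR2 and AQR1 fell by 1.22 ± 0.11 and 1.20 ± 0.21, and with a larger added value differed by -0.94 and -0.49 and were not called. QDR1 fell by 1.02 ± 0.15, a call that ended within the shared hybridization run (-0.81). Of 45 amino acid permeases and nitrogen genes 4 fell and none rose: ALP1, the peptide transporter PTR2 (-1.47 ± 0.14), the ammonium permease MEP3 (-1.34 ± 0.14) and the amino acid permease TAT1 (-1.22 ± 0.08). Of 45 genes of fatty acid and phospholipid synthesis 5 fell and none rose (median 0.02), among them the fatty acid elongases ELO1 (-1.62 ± 0.09) and ELO3 (-1.23 ± 0.10) and the inositol transporter ITR1 (-1.27 ± 0.13, from 3757, 3829 and 3708 to 1727, 1708 and 1734). FAS1 was not called on its brightest probe set (0.57), but its probe sets disagreed. Some of the others were called higher (1.04, 1.06 and 1.38) and another lower (-1.40). Of 29 ergosterol genes 2 fell and 1 rose (median -0.22): ERG6, given above, ERG25 (-1.11 ± 0.11, and -0.96 and not called with the run as a block or without the third dry array) and ARE2, which esterifies sterols (1.24 ± 0.12, and 0.85 and not called with a larger added value).

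Lists of genes known for a part in desiccation and stress tolerance each had from 1 to 3 calls. The share called was 12.5% of hydrophilins (1 of 8 genes) and 11.1% of osmotic stress and glycerol genes (2 higher and 1 lower of 27). With so few calls, neither share can be told from the 8.41% of nuclear protein-coding genes. The share was below 8.41% for trehalose and glycogen (4.76%), stationary phase genes (4.17%), heat shock chaperones (3.85%) and oxidant and thiol defence (2.86%). Of 8 hydrophilins 1 rose, ROQ1, which gave 780.2, 775 and 751 in the 50% dry arrays and 2055, 2023 and 2042 in the dry arrays, a rise of 1.52 ± 0.08 (adjusted p = 4.6e-11). SIP18, whose loss is known to lower survival of drying, gave 4183, 3939 and 3510.4 in the 50% dry arrays and 3220.4, 3050.1 and 3783 in the dry arrays after a control mean of 3.6, and its groups overlapped (difference -0.15 ± 0.08). GRE1 gave 6444, 5859 and 2967 in the 50% dry arrays and 3175, 3059 and 4386 in the dry arrays, with a control mean of 49.5 and a difference of -0.36 ± 0.22. STF2 and HSP12 differed by 0.14 ± 0.17 and -0.35 ± 0.41, also with overlap.

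In the trehalose and glycogen list 1 of 21 genes was called: GPH1, glycogen phosphorylase, fell by 1.10 ± 0.22, from 1323, 1275 and 1395 to 628, 675 and 680.4, and by 0.99 with the deposited scaling, which was not called. TPS1, the trehalose-6-phosphate synthase, gave 3835, 3444 and 3159 in the 50% dry arrays and 3239.7, 3286 and 3692 in the dry arrays, a difference of 0.08 ± 0.08. NTH1, the neutral trehalase, gave 1643, 1529 and 1511 in the 50% dry arrays and 2706, 2680.1 and 2757 in the dry arrays, with all dry arrays above and a difference of 0.94 ± 0.10 that passed the adjusted p but not the fold minimum. Of 26 heat shock chaperones only HSP30, a plasma membrane protein that restrains the proton pump, was called, and it fell by 2.29 ± 0.09, from 3232, 2989.8 and 2722 to 668, 733 and 672. HSP104, the disaggregase, differed by -0.04 ± 0.14 and HSP26, a small chaperone, by 0.25 ± 0.08. Of 35 genes of oxidant and thiol defence TRR1, the cytosolic thioredoxin reductase, alone was called and rose by 1.23 ± 0.09. Among 24 stationary phase genes RGI1 fell by 2.19 ± 0.14, from 2809, 2478 and 2644 to 636, 678 and 644. Of 27 osmotic stress and glycerol genes STL1 and PTP3, a phosphatase of the stress kinase pathways (1.11 ± 0.16, not called with a larger added value), rose and GPD2, a glycerol-3-phosphate dehydrogenase, fell by 1.35 ± 0.23. GPD1, its stress-induced counterpart, gave 3461, 3034 and 3018 in the 50% dry arrays and 4439.9, 4356 and 4682 in the dry arrays, a difference of 0.77 ± 0.13 below the fold minimum.

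Among lists for the breakdown of RNA and protein, the proteasome, autophagy and messenger RNA decay had medians above 0 with few calls, and the RNA exosome and vacuolar proteases had medians below 0. Over all nuclear protein-coding genes the dry arrays lay all above in 30.1% and all below in 28.7%. None of 36 proteasome genes was called by limma, 21 had an unadjusted p under 0.05, their median difference was 0.26, and in 24 the 3 dry arrays lay above all 50% dry arrays and in 2 below. Of 28 autophagy genes 1 rose, ATG14 (1.13 ± 0.10, not called with a larger added value), with a median of 0.39 and the dry arrays lying all above in 19. ATG1, the kinase that starts autophagy, had means of 1163 and 1868 and a difference of 0.74 ± 0.12. In messenger RNA decay 3 of 40 genes rose: LSM7 (1.36 ± 0.20) and LSM5 (1.05 ± 0.11), 2 subunits of the Lsm ring, and EDC2 (1.03 ± 0.12), an activator of decapping. The dry arrays lay all above in 21 of the 40 (median 0.30). The RNA exosome, which degrades and trims nuclear RNA, had a median of -0.25: of 20 genes LRP1 rose by 1.12 ± 0.16, and AIR1 (-2.02 ± 0.34), SKI6 (-1.14 ± 0.12) and MTR3 (-1.09 ± 0.30) fell. Not called with the hybridization run as a block were LSM5 (0.98), LRP1 (0.98), MTR3 (-0.77) and EDC2 (0.998). EDC2 was also not called with the deposited scaling (0.76). The calls of AIR1 (-0.98), SKI6 (-0.91), MTR3 (-0.64), LRP1 (0.82) and LSM5 (0.80) ended with a larger added value. Of 13 vacuolar protease genes none was called by limma (4 had an unadjusted p under 0.05), their median was -0.04, and the dry arrays lay all above in 2 and all below in 1.

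Of 34 cyclin and cell cycle genes 3 fell and none rose, near the share called among nuclear protein-coding genes (8.41% in either direction). CLN3, the G1 cyclin that links growth to cell cycle entry, gave 471, 539.9 and 520.1 in the 50% dry arrays and 175, 188 and 173 in the dry arrays, a difference of -1.53 ± 0.12. SWI6, a subunit of the G1 transcription factors, fell by 1.10 ± 0.16, a call that ended with a larger added value (-0.87). CLN1 fell by 1.04 ± 0.21, a call that ended with the hybridization run as a block (-0.75) or a larger added value (-0.49). The CLN1 call also ended without the third 50% dry array or the second dry array. IME1, the activator that commits diploid cells to meiosis, had a control mean of 181, stood at 3428, 3061 and 3127 at 50% dry and fell to 966, 824 and 929 when dry, a 3.99-fold difference. The spore wall gene SPS100 fell by 1.15 ± 0.15 and had a mean of 8862 after 360 min of rehydration. Of 38 meiosis and sporulation genes these were the 2 called.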

How the data were processed

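Total RNA of 21 samples in 7 groups of 3 was hybridized to Affymetrix yeast arrays, 1 array per sample, and the 6 arrays of the 50% dry and dry groups were compared. The deposited intensity values are linear probe-set signals. Per the labels, the authors used Affymetrix's GeneChip software on the images, processed probe sets by a signed rank test and consolidated them in a mixed model. Not given in the sources used here are the software version, target preparation and scaling target. The number of arrays limits the precision. Run records gave the hybridization run of each array.

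Of 9335 probe sets 60 were controls and were left out. By the platform's annotation and RefSeq's gene table, 6504 of the 9275 tested named 1 gene, 328 several and 2443 none, for 5656 genes. A value of 17.74 (10% of the median, 177.4) was added, log2 taken and arrays quantile normalized. limma 3.58.1 (R 4.3.3) fitted 7 group means over 21 arrays, with a variance trend (14 residual and 4.03 prior degrees of freedom), and p-values were adjusted by Benjamini-Hochberg over all 9275. The fit was tested on simulated data.

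The 65 gene lists were described by counts and medians with no test. Members and lists were chosen with earlier results of these data known, and misplaced members and the RNA gene patterns were corrected after the annotation was read. Named were the 15 largest rises and falls among called, non-overlapping, standard-named protein-coding genes, up to 4 called members per list and direction, other members where a list is described, and HIS3, LEU2 and URA3. Same-numbered arrays did not deviate together, and the main fit did not pair them. Whether they came from a shared culture cannot be told from this. Alternatives changed the added value, scaling, trend, dim-probe filter, fold minimum, arrays fitted, replicate block, hybridization run and probe-set choice. No sequence or genome was used here.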

Additional observations from a re-analysis of the deposited data

How the results depend on the processing

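The count of called probe sets (752, with 284 higher and 468 lower) moved with the value added before log2 and with the fold minimum. With 50% of the median added it was 410 (147 higher, 263 lower), with 1% added 1014 (430 higher), and with no fold minimum 3258 (1723 higher, 1535 lower). With 1 array left out in turn it ran from 750 to 793, with 279 to 313 higher and 460 to 483 lower. With the hybridization run as a block it was 736 (280 higher, 456 lower). Deviations of same-numbered arrays from their group means correlated at -0.14, -0.03 and -0.10, which cannot show whether these arrays shared a culture. With the replicate block 750 were called, 283 higher and 467 lower. Transfer RNA probe sets called higher numbered 60 with 50% added, 83 with 1% added, 70 with the run block, 74 with the deposited scaling and 69 to 73 with 1 array left out, against 72 reported. With 50% added, the small subunit processome had 8 members lower, large subunit assembly 12, and RNA polymerase III none of either kind. None of the alternatives turned the direction of the 30 genes named first. Calls of 3 of these ended, as given in the report: ATP6 with the run block (0.57), FHN1 with 50% added (0.99) and REX3 with the mean of its probe sets (0.66). Of 254 called genes checked, 176 stayed called under every alternative that tested them. The 254 were the 30 genes named first, the called RNA genes, and up to 4 called members per list and direction. These members were those with the largest differences and no overlap, and called list members with smaller differences were not checked. Of the 254, 64 were no longer called with 50% added, 22 with the run block, 13 with the deposited scaling and 12 with median-centred arrays. Differences of dim probe sets are limited by signal near the array floor, and the run block rests on 1 dry array beside the 50% dry arrays.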

Other observations

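Groups of genes outside ribosome production, metabolism and stress are given here beside the 8.41% of nuclear protein-coding genes called and the 30.1% with the dry arrays all above. Of 50 chromatin factors 2 rose, SWI1 of the SWI/SNF remodeller (1.17 ± 0.15 on the brightest of 7 probe sets, and 0.72, not called, over their mean) and SIR4 of silent chromatin (1.11 ± 0.20), and in 24 the dry arrays lay all above the 50% dry arrays. In replication and repair 3 of 46 rose: the checkpoint kinase RAD53 (1.14 ± 0.14), ORC1 of the origin recognition complex (1.08 ± 0.21) and RFA3 of the single-strand binding complex (1.07 ± 0.08). Vesicle transport had 1 of 51 higher, the plasma membrane SNARE SSO1 (1.01 ± 0.09), with the dry arrays all above in 26. With 50% of the median added, the calls of SIR4 (0.80), RAD53 (0.80), ORC1 (0.75) and SSO1 (0.96) ended. Those of ORC1 (0.92) and SSO1 (0.92) also ended with the run block, and that of SSO1 also with the deposited scaling (0.91). With median-centred arrays the calls of SSO1 (0.88) and RFA3 (0.98) ended. Without the first 50% dry array SIR4 and ORC1 were not called, and without the third dry array ORC1, RFA3 and SSO1 were not; SSO1 was also not called without the third 50% dry array. No gene of the cytoskeleton list (45), the vacuolar proteases (13) or the histones (5) was called by limma, and 23, 4 and 4 of them had an unadjusted p under 0.05. Among falls, PAM18, a motor subunit of mitochondrial import, went from 548, 500.4 and 509 to 92, 104 and 96.4 (-2.28 ± 0.11), the only call among 36 import genes. PRP43, a helicase of both splicing and ribosome assembly, fell by 1.83 ± 0.13, the only call among 50 splicing protein genes, while the spliceosomal RNAs rose. The prefoldin subunits GIM3 and PAC10 fell by 1.24 ± 0.12 and 1.20 ± 0.14, and neither was called with 50% added (-0.95 and -0.73).

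Of the 2443 probe sets with no gene in the annotation 53 were called higher and 44 lower, with a median difference of 0.03. Among the 328 that name several genes 3 were higher and 36 lower.

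Some bright probe sets varied more between arrays of a group than between the groups. They were picked after their values were seen. DDR2, a stress-response gene, gave 3635, 1540.2 and 1 in the 50% dry arrays and 1.9, 300.1 and 1261 in the dry arrays. HOR7, another stress-induced gene, gave 923, 211 and 0 in the 50% dry arrays and 0, 157 and 0.9 in the dry arrays, and HSP12, a small hydrophilin of the membrane, gave 4915, 3118 and 1142 in the 50% dry arrays and 1616, 1797 and 2714 in the dry arrays. In all 3 the third 50% dry array was the lowest of its group, as it was for TIP1, ATP6 and the RDN25-1 probe set described above. In all 3 the first dry array was the lowest of the dry arrays, as it was for ATP6 and RDN25-1. What these arrays share beyond the hybridization run was not tested.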
